A study of Mus musculus with 13 samples.

Results

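The 26S proteasome is the protease complex that degrades proteins tagged with ubiquitin, and 32 genes of its core and regulatory particles were examined in melanoma cells grown in the lungs of mice carrying human APOE2 or human APOE3. The members were the rows of the deposited table that matched the symbols of 7 alpha-ring genes (Psma1 to Psma7), 7 beta-ring genes (Psmb1 to Psmb7), 6 base ATPase genes (Psmc1 to Psmc6) and 12 genes of the other base and lid subunits (11 Psmd genes and Adrm1). All 32 were found among 22656 rows, and all 32 were among the 12403 genes that entered the test (those averaging 10 normalised counts or more). None was lost to that filter, since the lowest member mean was 317 normalised counts.

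The cells were B16F10-TR-shApoe, a form of the mouse melanoma line B16F10 in which a short hairpin targets the endogenous Apoe transcript, so the hairpin was shared by both groups and the host's knock-in allele was what differed. There were 8 libraries from APOE2 knock-in mice and 5 from APOE3 knock-in mice, matching the numbers of mice in the series' design. Lungs were taken 15 days after tail-vein injection, and living GFP+ cells that lacked the leukocyte antigen CD45 were sorted. RNA was sequenced with QuantSeq 3' FWD, which reads the 3' end of polyadenylated transcripts, so 1 transcript gives about the same number of reads whatever its length. All injected melanoma cells descend from 1 line.

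In the 20S core, rings of alpha subunits gate the entrance to an inner chamber formed by rings of beta subunits. Psmb5, Psmb6 and Psmb7 carry the chymotrypsin-like, caspase-like and trypsin-like active sites, and interferon-gamma-inducible counterparts (Psmb8, Psmb9 and Psmb10) can replace them to form the immunoproteasome. The 19S regulatory particle sits on the core. The Psmc ATPases of its base unfold substrates and open the gate, other base subunits and Adrm1 bind ubiquitin or scaffold the base, and the lid holds the deubiquitinase Psmd14. Cells are known to adjust these genes together through the transcription factor NFE2L1, which binds antioxidant response elements. In tumour cells a high demand for protein turnover makes the proteasome a drug target.

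Recovered reads ranged from 7080308 to 13039989 per library, and the 32 genes together took 0.690% to 0.743% of the counts in APOE2 libraries and 0.629% to 0.706% in APOE3 libraries. The lowest read number of any member in any library was 158. APOE3 replicate 2 stood apart: 7 members were at their highest of all 13 libraries there and 12 at their lowest. Across 4666 genes within the members' range of mean level (317 to 6847 normalised counts), 48.8% were at an extreme in that library, against 59.4% of the members, so the departure was not confined to the proteasome. The transcript Gm42418 took 3.74% of counts there, 3.03% in APOE3 replicate 3 and 0.662% to 2.17% in the others. Malat1, a nuclear RNA, took 0.352% to 0.727% of counts in APOE2 and 0.197% to 0.312% in APOE3, without overlap. Mitochondrial genes took 4.22% to 5.04% in APOE2 and 4.30% to 6.29% in APOE3, with 4 of 5 APOE3 libraries above all of APOE2. The part of these differences in the members' values was not tested. Marker sums of other cell types also differed by genotype. Lung epithelium markers (12 of 16 tested, 6 lower and 0 higher in APOE2 at adjusted p under 0.05 in limma) summed to 76.2 to 493.5 counts per 1000000 in APOE2 and 424 to 2632 in APOE3, with Scgb3a2 and Epcam at 0 in 7 or more libraries. Leukocyte markers (8 of 21 tested, 2 lower, 0 higher) summed to 59.5 to 304 and 265 to 1496, and Cd3e, Cd3d, Cd8a, Cd4, Cd79a, Ms4a1, Nkg7 and Adgre1 were at 0 in 7 or more libraries. That sum was mostly Lyz2 (mean 2749 normalised counts over all libraries), which alveolar type 2 cells also express. The next highest mean was that of S100a8 (120). Endothelium markers (14 of 14 tested, 2 lower) summed to 90.4 to 146 and 135 to 301, and fibroblast and smooth muscle markers (8 of 13 tested, 1 lower) to 33.5 to 101 and 46.2 to 256, with Tagln and Cnn1 at 0 in 7 or more libraries. Erythroid markers (4 of 6 tested, none called) summed to 98.2 to 186 and 57.3 to 174, with Hba-a2 and Alas2 at 0 in 7 or more libraries. Melanoma markers (10 of 10 tested, none called) summed to 41954 to 57330 in APOE2 and 34073 to 44706 in APOE3, so the labelled cell type was present in every library. That sum was mostly Dct, with means of 232522 normalised counts in APOE2 and 150389 in APOE3. The log2 difference, APOE2 minus APOE3, was positive for 6 of the 10 melanoma markers and negative for 4. The part that these other cells have in the differences below was not tested beyond the covariate fit given with them, which cannot fully separate marker level from host. In bulk libraries, fewer cells of a type and less RNA per cell cannot be told apart.

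None of the 32 genes passed the threshold between hosts. With limma on log2(normalised count + 1) and Benjamini-Hochberg adjustment over all 12403 genes, 0 members were higher and 0 lower in APOE2 at an adjusted p under 0.05, where 0.411% of all genes were called higher and 0.379% lower (0.790% in either direction). The same count of 0 was given by edgeR, which called 1.11% of all genes (0.492% higher, 0.621% lower), and by DESeq2, which called 2.51% (1.23% higher, 1.27% lower). At an unadjusted p under 0.05, 7 members were higher in APOE2 and 0 were lower (21.9% of members higher), against 7.51% of all genes higher and 6.71% lower (14.2% in either direction), and 11.3% and 6.69% of the genes within the members' range of level. The 7 were Psma1, Psma2, Psma3, Psma4, Psmb4, Adrm1 and Psmd1. At that unadjusted level edgeR gave 8 members higher and 1 lower (6.35% and 6.86% of all genes; 13.2% in either direction), and DESeq2 gave 9 and 1 (6.70% and 7.76%; 14.5%). Among genes in the members' range of level, 1.11% passed the adjusted threshold in limma. No member had groups free of overlap, a pattern that 0.476% of all genes showed with APOE2 higher and 0.508% with APOE2 lower.

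The differences were small and mostly of 1 sign. The log2 difference, APOE2 minus APOE3, was above 0 for 22 of 32 members, against 50.1% of all genes and 53.7% of genes in the members' range of level. Its median over the members was 0.13, beside 0.00037 over all genes tested and 0.021 over genes in that range. The 95% intervals of all 32 lay between −0.53 and 0.74 on the log2 scale, which is between 0.694 and 1.67 as a fold, and 25 of them included 0. Near-identical copies had low counts: 8 members had annotated copies matching at least 95% over 100 or more of their last 300 bases, and of the 15 copies in the table none exceeded 5.54% of its member's mean. A read that fits a member and its copy equally cannot be placed from these counts. The low counts of copies therefore do not show that the members' own counts are unaffected. This search covered the 32 members only. The median standard error of a member was 0.12. Within groups the median coefficient of variation over the members was 10.2% in APOE2 and 18.5% in APOE3.

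**Figure D1:**
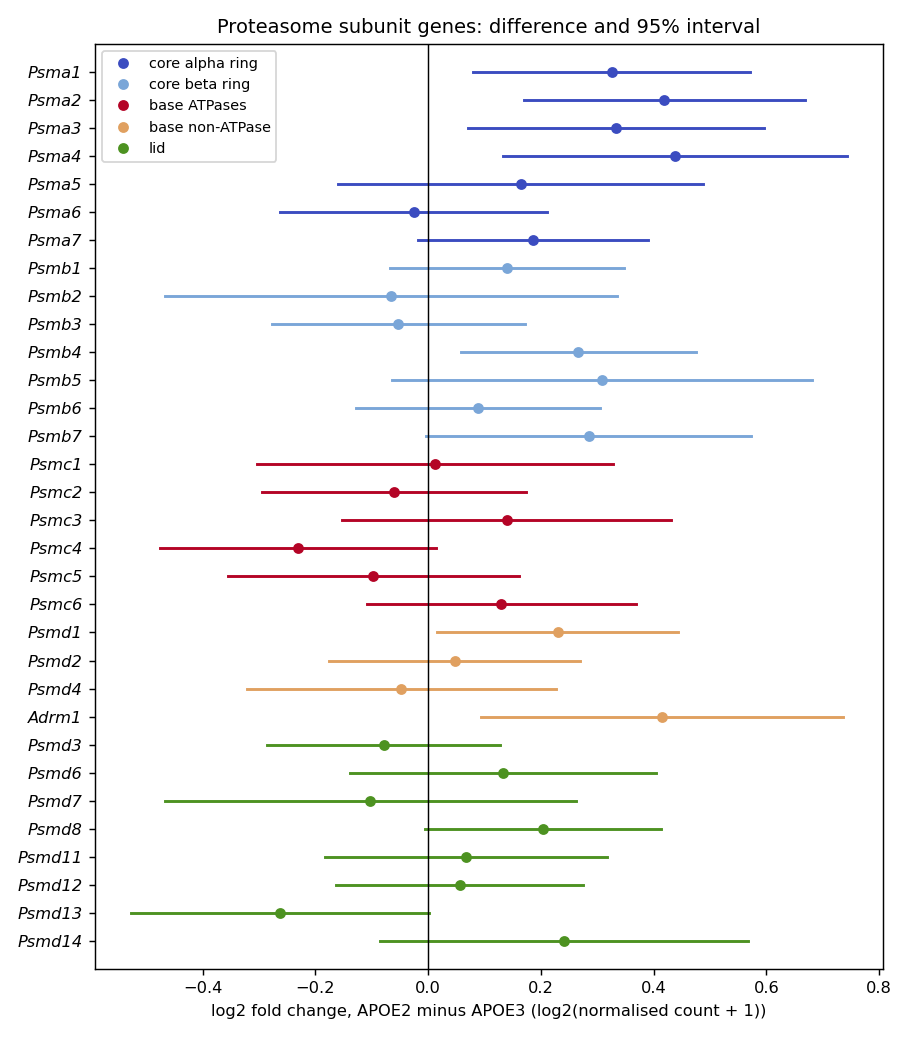
Log2 difference between hosts (APOE2 minus APOE3, x axis, on the log2(normalised count + 1) scale) for each of the 32 subunit genes (y axis), with its 95% interval from limma, coloured by place in the complex. Psma4 and Psma2 lie furthest to the right, the intervals of 4 alpha-ring genes lie above 0, and no interval lies wholly below 0.

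The classes are described by their medians, which have no test of their own. The core had a median log2 difference of 0.23, with 11 of 14 genes above 0 and 5 at an unadjusted p under 0.05. Within it the alpha ring had 0.33 (6 of 7 above 0) and the beta ring 0.14 (5 of 7). The base ATPases had −0.024, with 3 of 6 above 0 and none at that unadjusted level. Psmd genes and Adrm1 had 0.062, with 8 of 12 above 0, from a median of 0.14 over the 4 base genes and 0.062 over the 8 lid genes. Without APOE3 replicate 2 the ATPase median was 0.046 and the core median 0.18.

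Sequence upstream of the start sites is shown for 4 core genes, because the subunit genes are known to be regulated together and the core had the highest class median. Each run is the 250 bases before the RefSeq start (GRCm38.p6), 5' to 3' on the gene's strand, with capitals marking CCAAT, the box bound by NF-Y, or TGACNNNGC, the core of the antioxidant response element, searched on both strands. The windows of Psma1 and Psma3 hold CCAAT, that of Psmb6 holds TGACNNNGC at its end next to the start site, and that of Psmb4 holds neither.
Psma1, chr7:114276117-114276366, minus strand: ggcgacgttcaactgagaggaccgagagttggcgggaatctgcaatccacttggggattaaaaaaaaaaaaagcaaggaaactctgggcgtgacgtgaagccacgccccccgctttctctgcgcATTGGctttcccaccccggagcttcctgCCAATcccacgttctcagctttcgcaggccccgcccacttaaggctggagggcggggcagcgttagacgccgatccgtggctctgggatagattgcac
Psma3, chr12:70974373-70974622, plus strand: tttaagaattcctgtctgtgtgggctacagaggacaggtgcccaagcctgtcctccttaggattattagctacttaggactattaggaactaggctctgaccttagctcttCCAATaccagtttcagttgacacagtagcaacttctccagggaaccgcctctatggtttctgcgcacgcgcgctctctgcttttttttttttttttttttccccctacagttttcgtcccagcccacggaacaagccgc
Psmb4, chr3:94886959-94887208, minus strand: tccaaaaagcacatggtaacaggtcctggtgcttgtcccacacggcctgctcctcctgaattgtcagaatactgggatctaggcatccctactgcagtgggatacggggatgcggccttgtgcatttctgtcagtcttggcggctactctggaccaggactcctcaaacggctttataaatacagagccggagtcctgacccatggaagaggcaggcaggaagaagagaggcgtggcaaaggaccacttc
Psmb6, chr11:70525107-70525356, plus strand: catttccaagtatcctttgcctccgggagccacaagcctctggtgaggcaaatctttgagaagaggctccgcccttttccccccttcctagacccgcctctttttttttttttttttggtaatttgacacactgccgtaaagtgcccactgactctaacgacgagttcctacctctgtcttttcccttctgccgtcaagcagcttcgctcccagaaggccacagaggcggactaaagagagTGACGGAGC

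Upstream windows were matched for 26 of the 32 genes. They had 28 windows, since Psma6 and Psmc2 have 2 start sites each. Annotated exons of the same or another gene overlapped some windows, covering all 250 bases for Psma4 and Psmd13 and 103 for Adrm1. In the windows printed above they covered 0 to 3 bases. CCAAT was found in 11 of the 28 windows (39.3%), 1 for each of 11 genes, and in 33.9% of all 32851 windows of that length. TGACNNNGC was found in 5 of the 28 (17.9%), those of Adrm1, Psmb5, Psmb6, Psmc6 and Psmd12, and in 10.2% of all windows. Their log2 differences between hosts were 0.41 for Adrm1, 0.31 for Psmb5, 0.13 for Psmc6, 0.09 for Psmb6 and 0.06 for Psmd12, and 1 of the 5, Adrm1, had an unadjusted p under 0.05. A match describes the letters in this window and not a bound site.

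Among alpha-ring genes, which form the gated entrance of the core, Psma2 (ENSMUSG00000015671, GRCm38 chromosome 13, 14613240 to 14674236) had the smallest unadjusted p. Its normalised counts in APOE2 libraries were 3516 at the lowest, 4193 at the median and 4385 at the highest. The APOE3 libraries, replicates 1 to 5, had 3531, 2237, 2687, 4081 and 2949. All 5 APOE3 libraries lay below the APOE2 median and 3 lay below the lowest APOE2 library, and the groups overlapped through replicates 1 and 4. Group means were 4062 ± 297 (SD, 8 APOE2 libraries) and 3097 ± 722 (SD, 5 APOE3 libraries). On the log2 scale APOE2 exceeded APOE3 by 0.42 ± 0.12 (SE), with adjusted p = 0.107 in limma, and 8 of 8 APOE2 libraries lay above the APOE3 mean. Over the alternatives that left out 1 library, the adjusted p ran from 0.0550 to 0.224.

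Psma4 (ENSMUSG00000032301, chromosome 9, 54950790 to 54958030), a neighbour of these subunits in the ring, ranged from 685 to 1138 with a median of 868 in APOE2. Its APOE3 values were 833, 782, 687, 534 and 516. Here APOE3 replicates 4 and 5 were the low libraries, not replicate 2, and 5 of 8 APOE2 libraries lay above every APOE3 library. Its log2 difference of 0.44 ± 0.15 (SE) came with an adjusted p of 0.171 in limma. Psma4 shares its 3' end with the annotated copy Gm6542, whose mean was 2.31% of that of Psma4, and it overlaps AY074887 on the other strand, which had a mean of 7.10 normalised counts.

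Psma1 and Psma3, whose upstream sequences are printed above, depended in size on APOE3 replicate 2. In APOE2, Psma1 ran from 1924 over a median of 2041 to 2494. In APOE3 it was at 1989.8, 1168, 1713, 1917 and 1719, and 7 of 8 APOE2 libraries lay above all of these. Psma3 in APOE2 ran from 1454 over a median of 1527 to 1948. In APOE3, Psma3 was at 1629, 893, 1152, 1472 and 1279.6, so replicate 2 was the lowest of all 13 libraries for both genes, and for Psma3 replicates 1 and 4 lay among the APOE2 values. The log2 differences were both 0.33, with limma adjusted p-values of 0.211 for Psma1 and 0.230 for Psma3. Without APOE3 replicate 2 they were 0.20 and 0.21, and neither had an unadjusted p under 0.05. The other 3 alpha-ring genes had log2 differences of 0.19 (Psma7), 0.16 (Psma5) and −0.03 (Psma6), with adjusted p-values from 0.400 to 0.948.

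**Figure D2:**
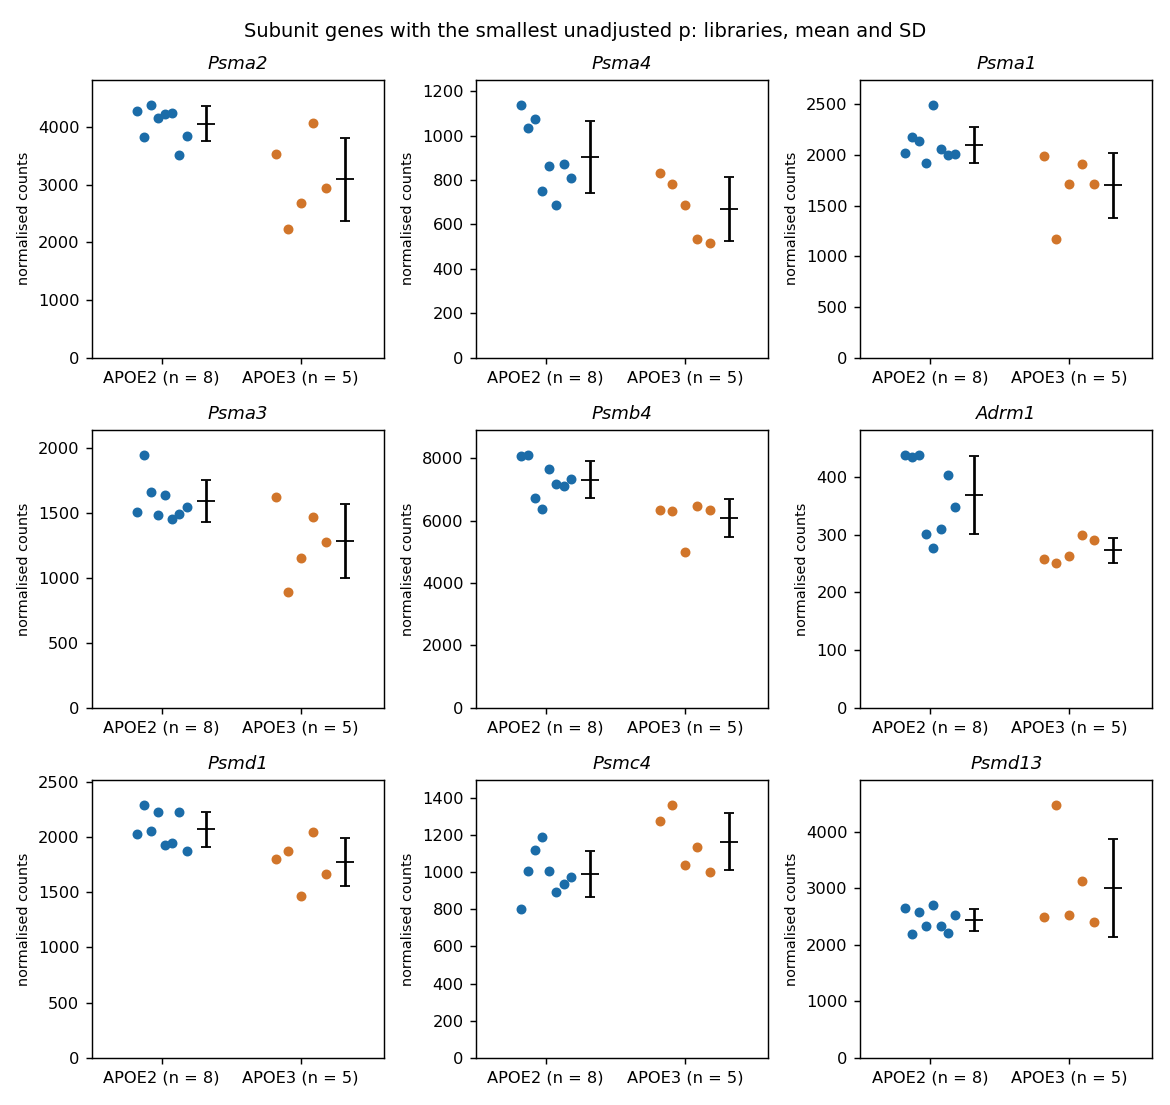
Normalised counts (y axis, from 0) in each library for 9 subunit genes, with APOE2 libraries (n = 8) in blue and APOE3 libraries (n = 5) in orange, in replicate order from left to right, and the mean and SD of each group in black. In every panel the groups overlap. APOE3 replicate 2 is the low point for Psma1, Psma2 and Psma3 and the high point for Psmc4 and Psmd13.

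In the beta ring, which encloses the proteolytic chamber, Psmb4 (ENSMUSG00000005779, chromosome 3, 94884093 to 94886961), a non-catalytic subunit, had the smallest unadjusted p. Its counts ran from 6387 over a median of 7255 to 8101 in APOE2 and were 6329, 6307, 4999, 6483 and 6346 in APOE3. The APOE3 libraries were tightly placed apart from replicate 3, and 7 of 8 APOE2 libraries lay above all 5. For Psmb4 the log2 difference was 0.27 ± 0.10 (SE), with adjusted p = 0.225 in limma. Without APOE3 replicate 3 it was 0.20.

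The catalytic genes had positive differences that did not pass the threshold. Psmb5 (chymotrypsin-like site) ran from 255 over a median of 339 to 443 in APOE2 and was at 272, 179, 268, 355 and 316 in APOE3. Its log2 difference was 0.31 ± 0.18 (SE, adjusted p = 0.447 in limma), and 0.16 without APOE3 replicate 2, which held the lowest value. Psmb7 (trypsin-like site) ran from 488 over a median of 548 to 656 in APOE2 and was at 521, 363, 533, 372 and 555 in APOE3. For Psmb7, APOE3 replicates 2 and 4 were low and the others lay within the APOE2 range. The log2 difference of Psmb7 was 0.28 ± 0.14 (SE, adjusted p = 0.357 in limma), and it overlaps Nek6 on the other strand, with a mean of 259.8 normalised counts. Psmb6 (caspase-like site) ran from 2338 over a median of 2644 to 2886 in APOE2 and was at 2365, 2593, 1997, 2743 and 2646 in APOE3, with 4 of the 5 inside the APOE2 range. Its log2 difference of 0.09 had a 95% interval from −0.13 to 0.31. The remaining beta-ring genes had 0.14 (Psmb1), −0.05 (Psmb3) and −0.07 (Psmb2), with adjusted p-values from 0.556 to 0.918, and the sign for Psmb2 and Psmb3 turned when certain single libraries were left out.

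Since the catalytic genes can be exchanged for inducible ones, the ratio of each inducible gene to its counterpart was compared within libraries. Psmb8 was near the detection limit, with 0.919 to 31.3 normalised counts (median 16.5) in APOE2 and 27.4, 11.3, 18.7, 59.3 and 1.16 in APOE3. Psmb9 ran from 0 to 38.0 (median 11.8) in APOE2 and was at 34.8, 4.52, 2.08, 8.47 and 12.7 in APOE3. The 0 was in APOE2 replicate 3, where 3 reads, the limit that a count of 0 allows, would be 2.76 normalised counts. Both genes varied more within a group than any of the 32 members, and the groups overlapped. Psmb10 ran from 337 over a median of 378 to 485 in APOE2 and was at 511, 458, 393, 438 and 363 in APOE3, with 1 APOE3 library above all of APOE2.

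Psmb10 counts were a median 68.9% of Psmb7 counts in APOE2 (54.0% to 89.6%) and 98.0% in APOE3 (65.4% to 126%). The mean log2 ratio was −0.51 ± 0.28 (SD, n = 8) and −0.10 ± 0.41 (SD, n = 5), a difference of −0.41. Enumerating all 1287 splits gave an exact two-sided permutation p = 0.0559, and 0.168 after adjustment over 3 ratios. When 1 library was left out, the difference ran from −0.54 to −0.30 and the adjusted permutation p from 0.0545 to 0.442. The −0.30 came without APOE3 replicate 2, where Psmb7 was at its lowest of 13 libraries. The ratio of Psmb8 to Psmb5 differed by −0.70 (exact permutation p = 0.474, adjusted 0.711) and that of Psmb9 to Psmb6 by −0.05 (exact p = 0.953, adjusted 0.953). The smallest p this design allows is 0.000777. Counts of different genes at the 3' end are not calibrated against each other, so these ratios compare hosts and not the makeup of the particle. Leukocytes express the inducible genes, and CD45+ cells were sorted out. Of the 8 leukocyte markers tested, Lyz2 (mean 1162 normalised counts in APOE2 and 5288 in APOE3, a gene that alveolar type 2 cells also express) and Cd74 were lower in APOE2, while S100a9 had a log2 difference of 0.50 (adjusted p = 0.656 in limma). The part of other cells in the Psmb10 ratio was not tested.

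**Figure D3:**
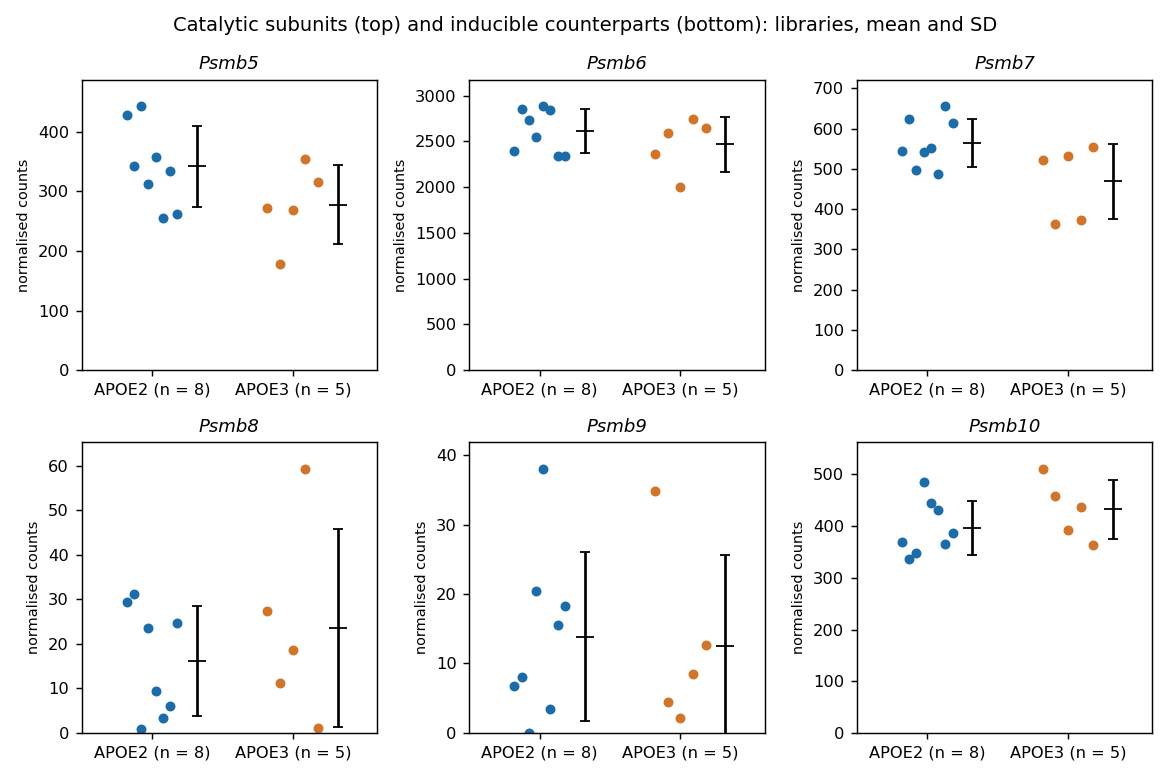
Normalised counts (y axis, from 0) of the catalytic genes Psmb5, Psmb6 and Psmb7 (top row) and their inducible counterparts Psmb8, Psmb9 and Psmb10 (bottom row) in each library, with group mean and SD in black (SD bars end at 0 where they would fall below it). Psmb8 stays at or under 59.3 and Psmb9 at or under 38.0 in every library, and the groups overlap in all 6 panels.

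The 6 base ATPases, which form the unfolding ring, showed no common direction. Psmc4 (ENSMUSG00000030603, chromosome 7, 28041707 to 28050101) ran from 801 over a median of 990.0 to 1189 in APOE2 and was at 1275, 1359, 1039, 1137 and 999.6 in APOE3. The groups overlapped, with 4 APOE2 libraries below all of APOE3 and 2 APOE3 libraries above all of APOE2. Its log2 difference was −0.23 ± 0.12 (SE, adjusted p = 0.383 in limma). Psmc6 ran from 1149 over a median of 1415 to 1506 in APOE2 and was at 1528, 1021, 1429.9, 1257 and 1130.3 in APOE3, with a log2 difference of 0.13 (adjusted p = 0.650). APOE3 values of Psmc6 fell on both sides of the APOE2 range.

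Psmc1 showed how much 1 library weighed in this class. Its APOE3 values were 2185, 4356, 2027, 1991 and 1833, against 2132 to 2927 in APOE2 with a median of 2305. Replicate 2 was above every other library and 3 of the other 4 were below the APOE2 range. Between hosts Psmc1 differed by 0.01 on the log2 scale with all libraries and 0.24 without APOE3 replicate 2, where Psmc1 and Psmc3 had an unadjusted p under 0.05 and none of the 32 passed after adjustment. The same library was the highest of 13 for Psmc3 (3431), Psmc4 (1359) and Psmc5 (2225), and the lowest for Psmc2 (1182) and Psmc6 (1021). Psmc3 overlaps Slc39a13 on the other strand, with a mean of 223 normalised counts. Log2 differences of the remaining ATPases were 0.14 (Psmc3), −0.06 (Psmc2) and −0.10 (Psmc5).

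In the rest of the base, Adrm1 (ENSMUSG00000039041, chromosome 2, 180171485 to 180176286), a ubiquitin receptor, ran from 277 over a median of 376 to 438 in APOE2. Its APOE3 values were 258, 252, 263, 299 and 292, all within a narrow band, and 7 of 8 APOE2 libraries lay above that band. For Adrm1 the log2 difference was 0.41 ± 0.16 (SE), with adjusted p = 0.221 in limma and a range of 0.38 to 0.47 over the fits that left out 1 library. An annotated copy, Gm9774, matches 99.7% of the last 298 bases of Adrm1 and had a mean of 5.54% of its level. Psmd1 (ENSMUSG00000026229, chromosome 1, 86064387 to 86139151), the large scaffold of the base, ran from 1871 over a median of 2041 to 2287 in APOE2 and was at 1797, 1873, 1467, 2049 and 1669 in APOE3. Here 3 APOE3 libraries lay below the APOE2 range and replicates 2 and 4 inside it. The log2 difference of Psmd1 was 0.23 ± 0.10 (SE, adjusted p = 0.313 in limma). Psmd2, the other scaffold, and Psmd4, a ubiquitin receptor, had 0.05 and −0.05.

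Lid genes spread on both sides of 0. Psmd13 (ENSMUSG00000025487, chromosome 7, 140881968 to 140898643), a lid scaffold subunit, had 2196 to 2699 normalised counts in APOE2 (median 2427) and 2492, 4469.9, 2533, 3123 and 2413 in APOE3. In APOE3, replicates 2 and 4 were above all APOE2 libraries and the others inside their range. For Psmd13 the log2 difference was −0.26 ± 0.13 (SE, adjusted p = 0.354 in limma), below the APOE3 mean in 8 of 8 APOE2 libraries, and −0.11 without APOE3 replicate 2. It overlaps Sirt3 on the other strand, with a mean of 233 normalised counts. Psmd8 (ENSMUSG00000030591, chromosome 7, 29174188 to 29180701), another structural lid subunit, ran from 3715 over a median of 4315 to 5023 in APOE2 and was at 3593, 3683, 3864, 3447 and 4179 in APOE3. For Psmd8, 3 APOE3 libraries lay below the APOE2 range and 5 APOE2 libraries above every APOE3 library, and the log2 difference was 0.20 ± 0.10 (SE, adjusted p = 0.366 in limma). Psmd14, the deubiquitinase, had 0.24 with all libraries and 0.06 without APOE3 replicate 2, where it was at 716 against 1096 to 2050 in the other 12. The other 5 lid genes lay between −0.10 (Psmd7) and 0.13 (Psmd6), with adjusted p-values from 0.690 to 0.857.

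**Figure D4:**
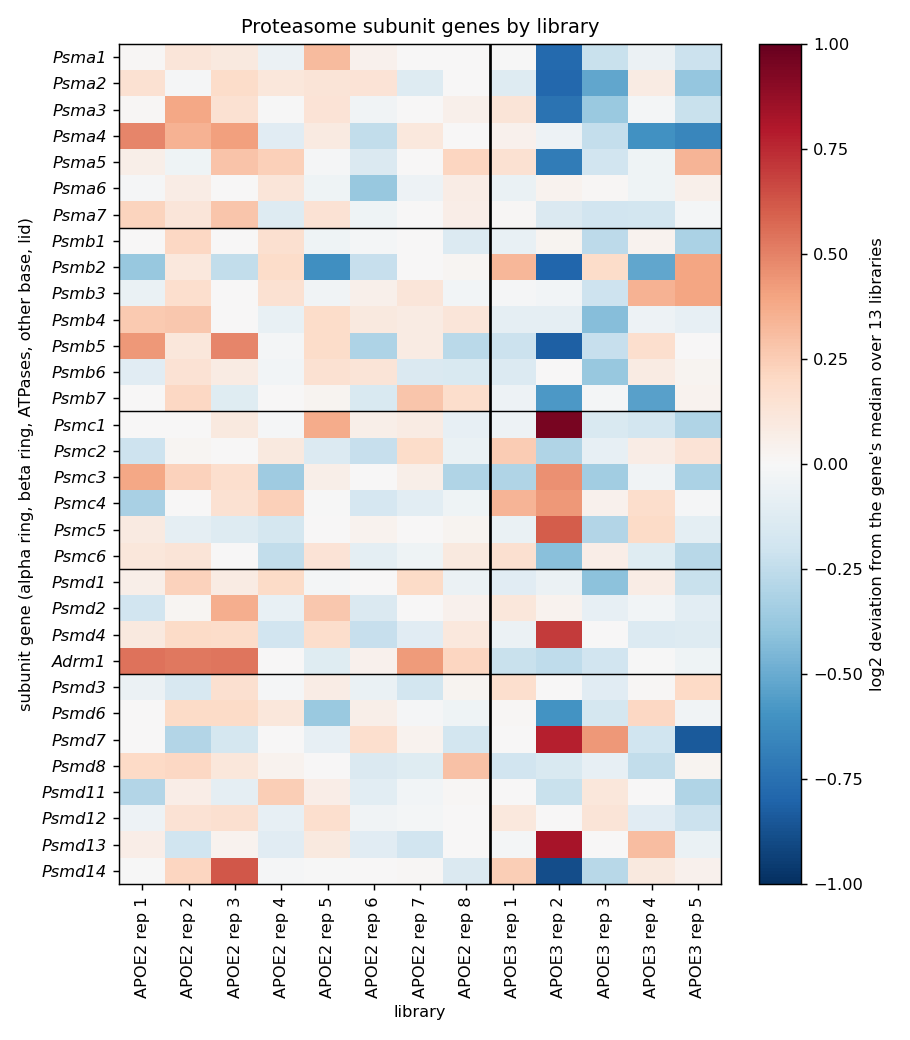
Log2 deviation of each subunit gene (rows) from its own median over the 13 libraries (columns), with lines between the alpha ring, beta ring, ATPases, other base genes and lid, and between hosts. APOE3 replicate 2 carries both the deepest blue and the deepest red cells, with 12 genes at their lowest and 7 at their highest of 13 libraries.

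Core and ATPase genes were also set against each other within each library, as the mean log2 deviation over the class from the midpoint of the group means. The core mean ran from −0.03 to 0.21 in APOE2 and from −0.34 to 0.04 in APOE3, and 7 of 8 APOE2 libraries lay above all of APOE3. For core minus ATPases the APOE2 libraries averaged 0.11 ± 0.06 (SD over 8) and the APOE3 libraries −0.11 ± 0.29 (SD over 5). APOE3 replicate 2 was at −0.62 and the rest of its group at −0.05 to 0.16. Without that library the APOE3 mean was 0.02 ± 0.10 and the difference between hosts 0.09 in place of 0.22, and no p is given for these means because the members were chosen with results known. With the lung epithelium markers as a covariate, 20 of 32 members had a positive difference, against 51.6% of all genes in that fit. At an unadjusted p under 0.05, 4 members were higher (Adrm1, Psma2, Psmb4 and Psmd1) and 1 lower (Psmc4), against 4.67% and 3.58% of all genes.

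**Figure D5:**
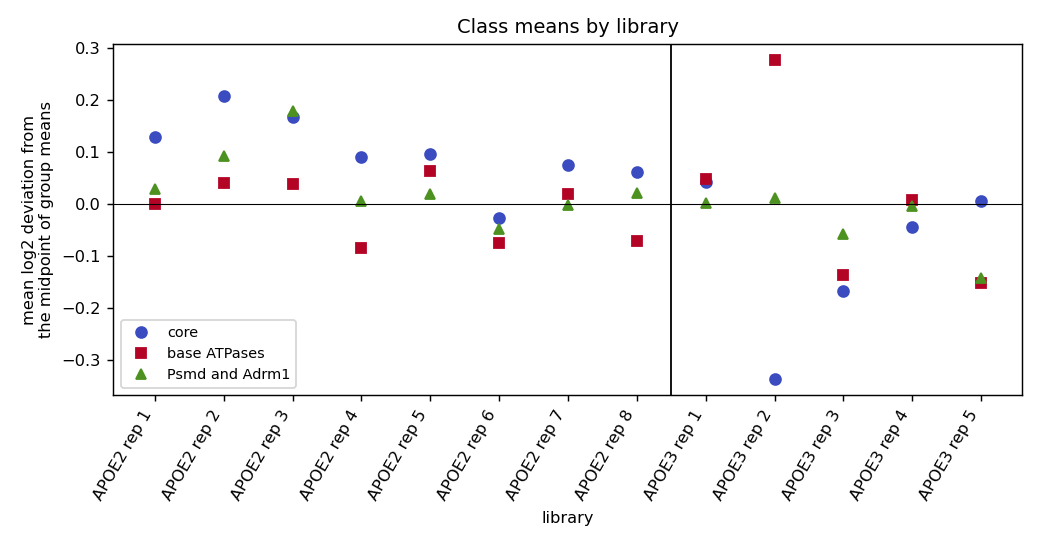
Mean log2 deviation (y axis) of the 14 core genes, the 6 base ATPases and the 12 Psmd genes and Adrm1 in each library (x axis), each gene centred on the midpoint of its group means. In APOE3 replicate 2 the core lies at −0.34 and the ATPases at 0.28. In the other 12 libraries all class means lie between −0.17 and 0.21.

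Within groups the members were loosely related to each other. After removal of group means, the median Pearson correlation over the 13 libraries was 0.12 for the 496 pairs of members and 0.0013 for pairs of other genes in their range of level. These correlations share libraries and depth and are given as a description. Each member's correlation with the mean of the other 31 ran from −0.50 (Psmd7) to 0.65 (Psma3), with a median of 0.30, and Psmc1, Psmc5 and Psmd13 were among those below 0. Psmd7, Psmc1, Psmc5 and Psmd13 were at their highest of 13 libraries in APOE3 replicate 2. So were Psmc3, Psmc4 and Psmd4, whose correlations were above 0. The part of that library in these correlations was not tested. The genes most like the members' mean, among 8248 genes with a mean of at least 100, were Erg28 (r = 0.91), Prr11 (0.88), Malsu1 (0.83), 1600014C10Rik (0.81) and Mrpl48 (0.80).

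Around the complex, 44 other genes of the ubiquitin-proteasome pathway were tested in 6 lists, and 0 were higher and 0 lower at an adjusted p under 0.05 in limma, beside the 0.411% and 0.379% of all genes. At an unadjusted p under 0.05 in limma, 7.51% of all genes were higher and 6.71% lower. At that level 1 of 5 immunoproteasome genes was higher (Psme2), and none was lower. Of 9 assembly chaperones 1 was higher (Psmg4) and 1 lower (Psmd9), of 4 ubiquitin genes 1 was higher (Rps27a), and of 13 proteasome-bound and shuttle factors 1 was higher (Sem1) and 1 lower (Usp14). Of 10 genes of the p97 and NFE2L1 list 1 was lower (Mafk). None of the 3 other activators and inhibitor was at that level. Nfe2l1 itself had a log2 difference of 0.13 (adjusted p = 0.730).

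Psme2, a subunit of the PA28 activator that partners Psme1, came closest to the threshold. It ran from 232 over a median of 393 to 555 in APOE2 and was at 225, 201, 239, 141 and 260.3 in APOE3. Only APOE2 replicate 3 lay among the APOE3 values, and the other 7 APOE2 libraries were above them all. Psme2 had a log2 difference of 0.81 ± 0.20 (SE), with adjusted p = 0.0587 in limma, 0.0435 in edgeR and 0.00823 in DESeq2. In limma it was 0.122 with the replicate block, 0.148 with no filter on low values, 0.186 with no variance trend and 0.230 with the epithelium covariate. All-gene calls fell from 98 in the main limma fit to 43 with the block and 9 with no filter. They numbered 2 with the covariate and 0 with no trend. The log2 difference of Psme2 was 0.89 with the block and 0.96 with the covariate. Its partner Psme1 had −0.11 (adjusted p = 0.779 in limma), and the difference between these genes was not tested.

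Rps27a, which encodes ubiquitin fused to a ribosomal protein, ran from 6459 over a median of 9753 to 12398 in APOE2 and was at 7546, 3754, 5361, 6792 and 7145 in APOE3. Its log2 difference was 0.64 ± 0.17 (SE, adjusted p = 0.0696 in limma, 0.0668 in edgeR, 0.0118 in DESeq2 and 0.471 with the epithelium covariate). With that covariate the difference was 0.59. The lowest of all 13 libraries for Rps27a was APOE3 replicate 2. The leading genes of the other lists were Psmg4, an assembly chaperone (0.54, adjusted p = 0.133), Sem1, a small lid subunit (0.59, adjusted p = 0.202), Mafk, a partner of NFE2L1 (−0.52, adjusted p = 0.256), and Psme3, the PA28 gamma activator (−0.20, adjusted p = 0.395), all in limma. For Sem1 the difference was 0.30 without APOE3 replicate 2.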

How the data were processed

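RNA-seq was made of 13 libraries (8 APOE2, 5 APOE3), grouped by the labelled genotype. Per the submitters' processing notes, STAR 2.6.0, featureCounts and DESeq2 1.28.1 were used with build mm10; the strand setting and annotation were not given in the sources used here. The authors deposited normalised counts, a signal per gene made by dividing reads by a size factor, from which 100% of values became whole reads (tolerance 0.01). Symbols and gene coordinates came from GENCODE M21 on GRCm38, the assembly of mm10 (22649 of 22656 matched), upstream windows from RefSeq.

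Genes with a mean of at least 10 were tested on log2(value + 1), pseudocount 1, with limma 3.58.1 (R 4.3.3, variance trend, two-sided, Benjamini-Hochberg, threshold 0.05), checked on simulated data. Fold changes on this scale understate low genes. Alternatives were pseudocounts of 0.5 and 5, equal totals, TMM, no filter, a mean of 50 or more, leaving out each library, a replicate block, no trend, robust variance, array weights, a lung epithelium covariate, edgeR 4.0.16 and DESeq2 1.42.0 on recovered reads. Named for full values were, per class, the 2 members with the smallest p, the catalytic and inducible genes, and the leading gene of each pathway list; other members with an unadjusted p under 0.05, or moved by 1 library, were added after their values were seen. Members and lists were chosen with earlier results of these data known. For 1 pathway gene, the result is not reported here.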

Additional observations from a re-analysis of the deposited data

Results flagged for a closer look

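Among 102 screens for a library far from the rest of its group, 11 exceeded Dixon's 95% limit, in 7 libraries, where chance gives about 5.1. High APOE2 libraries were replicate 5 for Psma1 (2494 normalised counts, next 2179) and Psmc1 (2927, next 2414), replicate 2 for Psma3 (1948, next 1661) and replicate 3 for Psmd14 (2050.0, next 1538). Low APOE2 libraries were replicate 6 for Psma6 (533, next 669) and replicate 5 for Psmd6 (770, next 966).

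In APOE3, replicate 2 was far above the others for Psmc1 (4356, next 2185) and Psmd4 (3028, next 1863), and far below them in the core minus ATPase difference (−0.62, next −0.05). Replicate 3 was low for Psmb4 (4999, next 6307), and replicate 5 was low for the log2 ratio of Psmb8 to Psmb5 (−7.20, next −3.87), where Psmb8 had 1 read.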

How the results depend on the processing

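No member was called in any alternative. All genes called numbered 98 in the main fit, 0 with no variance trend and 2 with the epithelium covariate. They numbered 9 with no filter and 9 without APOE3 replicate 3. Where so few of all genes were called, a count of 0 members says little about the members. Members higher at an unadjusted p under 0.05 numbered 7, then 10 with TMM, 9 with DESeq2, 8 with edgeR or no filter, 6 with equal totals or the block, 4 with the epithelium covariate, and 6 to 9 when 1 library was left out. Among all genes, 7.51% were higher, then 8.4% with TMM, 6.7% with DESeq2, 6.35% with edgeR and 4.47% with no filter. That share was 5.53% with equal totals, 5.59% with the block, 4.67% with the covariate and 6.29% to 8.82% when 1 library was left out. Members lower numbered 0, then 1 with pseudocount 5, robust variance, the covariate, edgeR or DESeq2, 2 with equal totals, and 0 to 3 when 1 library was left out. Among all genes, 6.71% were lower, then 6.98% with pseudocount 5, 6.61% with robust variance and 3.58% with the covariate. That share was 6.86% with edgeR, 7.76% with DESeq2, 8.71% with equal totals and 5.7% to 7.46% when 1 library was left out. Pathway genes called higher numbered 0, then 1 with pseudocount 5, TMM, a minimum mean of 50 or edgeR, 2 with DESeq2, and 0 to 3 when 1 library was left out (3 without APOE3 replicate 1: Psme2, Psmg4 and Rps27a). All genes called higher numbered 51, then 65 with pseudocount 5, 68 with TMM and 63 with that minimum mean. They numbered 61 with edgeR, 153 with DESeq2 and 131 without APOE3 replicate 1.

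Signs turned for Psma6 (−0.03; block 0.030), Psmb3 (−0.05; array weights 0.0083, covariate 0.024), Psmc1 (0.01; equal totals −0.029, covariate −0.076, edgeR −0.055, DESeq2 −0.063), Psmc5 (−0.10; array weights 0.032), Psmd2 (0.05; covariate −0.15), Psmd4 (−0.05; block 0.016, array weights 0.027), Psmd12 (0.06; covariate −0.027), Psmb8 (−0.39; covariate 0.51), Psmb9 (0.03; pseudocount 0.5 −0.042, equal totals −0.00026, block −0.083) and the Psmb9 to Psmb6 ratio (−0.05; pseudocount 5 0.012). The cause was not tested. Leaving out 1 library gave Psma6 −0.047 to 0.025, Psmb2 −0.24 to 0.054, Psmb3 −0.13 to 0.021, Psmc1 −0.077 to 0.24, Psmc2 −0.14 to 4.0e-05, Psmc5 −0.19 to 0.037, Psmd4 −0.10 to 0.11, Psmd7 −0.32 to 0.083, Psmb8 −1.10 to 0.10, Psmb9 −0.37 to 0.51, and the Psmb9 to Psmb6 ratio −0.39 to 0.44.

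With the replicate number as a block, 0 members were called, 6 were higher at an unadjusted p under 0.05 (5 of the 7), where 5.59% of all genes were higher and 5.31% lower, and all-gene calls numbered 43 in place of 98. Same-numbered libraries did not deviate together (pair correlations −0.063 to 0.014, and no library correlated best with its own number). Equal totals moved the median of all genes to −0.039 and TMM to 0.020. The class means without APOE3 replicate 2 were added after seeing the data.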

Other observations

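Usp14, a deubiquitinase that binds the proteasome, was chosen after its values were seen: of the 44 other pathway genes it alone had groups that did not overlap, as did 0.508% of all genes in that direction. It had 695 to 799.9 normalised counts in APOE2 (median 769) and 1074, 931, 835, 854 and 958 in APOE3. The log2 difference was −0.28 ± 0.11 (SE), with adjusted p = 0.237 in limma, so it did not pass the threshold over all genes. Usp14 overlaps Thoc1 on the other strand, with a mean of 483 normalised counts.

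In APOE3 replicate 2, the deviation of each of the 32 members from the other 4 APOE3 libraries ran from −0.92 (Psmd14) to 1.12 (Psmc1) on the log2 scale. Across the 32 genes, which are not independent replicates, it had r = 0.34 (rho = 0.36) with transcript GC content and r = 0.13 (rho = 0.16) with log2 transcript length.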
